A study of Mus musculus with 6 samples.

Results

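The genes described here encode the subunits of the 5 oxidative phosphorylation complexes, read on 6 two-colour Agilent arrays of mouse mammary gland cells. Members were all probes that are not controls and whose gene name on the array starts with Nduf and one of the letters a, b, c, s or v (complex I), Sdh (complex II), Uqcr (complex III), Cox followed by a digit from 4 to 8 (complex IV) or Atp5 (complex V). This gave 122 of 55681 probes, for 83 of 34821 gene names: 36 in complex I, 4 in complex II, 8 in complex III, 18 in complex IV and 17 in complex V. The naming pattern also takes 3 genes that are not subunits: Cox7a2l, which helps to assemble respiratory supercomplexes, Atp5s (now Dmac2l) and Atp5sl (now Dmac2). Ndufa4 is counted under complex I by its name, although its protein is now assigned to complex IV. Some nuclear-encoded subunits, such as Ndufab1 (complex I) and Cyc1 (complex III), are missed by the pattern.

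The study sorted mammary stem cell enriched cells (labelled MaSC, the CD24+ CD29hi gate) of virgin C57/B6:Dll1-mCherry reporter females into a fraction high in Dll1 (mCherry+) and a fraction low in Dll1 (mCherry-), called the high and the low fraction here and Dll1-high and Dll1-low in the plots, with 1 array each. It also sorted F4/80+ macrophages from mammary glands of virgin C57/B6:cKO-Dll1 females (KO) and of their C57/B6 wild type female littermates (WT), with 2 arrays each. Dll1 is a Notch ligand, and the title of the series places it between mammary stem cells and macrophages. Every sample was labelled with Cy5 and hybridised against a Cy3-labelled universal reference RNA from 11 mouse cell lines. The labels name neither the Cre line nor the deleted part of Dll1, and do not say whether replicates came from separate animals or pools, so a p-value here reflects only how these samples varied, which may be technical.

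Oxidative phosphorylation passes electrons from NADH through complex I, or from succinate through complex II, on to ubiquinone, complex III, cytochrome c and complex IV, while protons are pumped across the inner mitochondrial membrane. Complex V, the ATP synthase, lets the protons flow back and makes ATP. Except for complex II, each complex also holds subunits encoded by mitochondrial DNA, and the members here are the nuclear-encoded ones. Their promoters are known for sites of NRF1, of ETS factors such as GABP, and of YY1.

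The promoters of the members are shown first, because these genes are known for shared regulatory sites. RefSeq promoter sequences (build GRCm38.p6, 250 bases before to 50 after each transcription start) were matched for 69 of the 83 members. Those not matched included Ndufa2, Ndufb9, Ndufs1, Sdhc, Uqcrb, Uqcrc2, Uqcrq, Cox4i1, Cox4i2, Cox6a2, Cox6c, Cox8c and Atp5a1. On both strands, the NRF1 core GCGCATGCG was found in 8 of the 69 (11.6%), against 527 of 27025 genes with a promoter sequence (1.95%). The ETS core CCGGAAG was found in 16 (23.2%), against 9.93% of all, and the YY1 core AAGATGGCG in 8 (11.6%), against 1.64%. Any of the 3 cores, which share no bases in these matches, was found in 27 of the 69 (39.1%), against 12.7% of all. The windows below lie before the start site on the gene's strand, in lower case with the core in capitals, and are given for the member that differed most between the cell types (Ndufa11) and for a few members of complexes III, IV and V.
Ndufa11 (complex I, NRF1, chr17:56717694-56717718): tgcactgcGCGCATGCGcgcacgcc
Cox6a1 (complex IV, NRF1, chr5:115349104-115349128): ggaacgggGCGCATGCGcgctctcg
Atp5g2 (complex V, NRF1, chr15:102671073-102671097): ctccggccGCGCATGCGcagagcct
Uqcr11 (complex III, ETS, chr10:80406872-80406896): ctctcctccCCGGAAGtagatgtca
Atp5j (complex V, YY1, chr16:84835048-84835072): gtgtaggaAAGATGGCGgagtctta
In Ndufa11 the core began 60 bases before the annotated start. A match is a run of letters in this window and not a measured site.

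All values below are log2 ratios of the sample to the reference RNA, after background correction and intensity-dependent (loess) normalization within each array, and a gene stands for the brightest of its probes on average. Because each probe binds differently, a ratio was compared between arrays and never between genes. Of the 83 members, 82 and 81 had a Cy5 signal well above background, by the scanner software, in the high and low fractions, 77 and 75 for the KO pair and 80 and 81 for the WT pair. No member probe was saturated. Cox8c, a testis isoform, was not well above background on any array.

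Some arrays stood apart. WT replicate 1 correlated with WT replicate 2 at only 0.438 over all genes, while KO replicate 2 and WT replicate 2 correlated at 0.954 and the arrays of the high and low fractions at 0.968. Its median over macrophage markers was 1.43, against 2.99 to 3.98 on the other macrophage arrays, and its median over fibroblast markers was 1.31, against -1.15 to -0.29. Basal mammary cell markers had medians of 4.52 and 3.86 in the high and low fractions and 0.29 to 0.63 on the macrophage arrays. Dll1 itself read 3.94 and 3.26 in the high and low fractions, 0.80 and 2.25 for the KO pair and 0.78 and 3.24 for the WT pair, so the KO and WT ranges overlapped. On KO replicates 1 and 2, 698 and 379 probes (1.25% and 0.681%) had lost their reference signal, against 1 to 7 on the other arrays. Among the members this touched the gene-level probe of Ndufs1, Ndufs4, Cox6b1 and Atp5b on KO replicate 2 and of Atp5sl, Atp5j, Ndufb9 and Ndufs5 on KO replicate 1. The last 3 were also marked by the scanner software and left out there. For these members the Cy5 signal of the spot was low too. For Atp5b it was 64, against a median of 44916.4 on the other arrays.

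**Figure D1:**
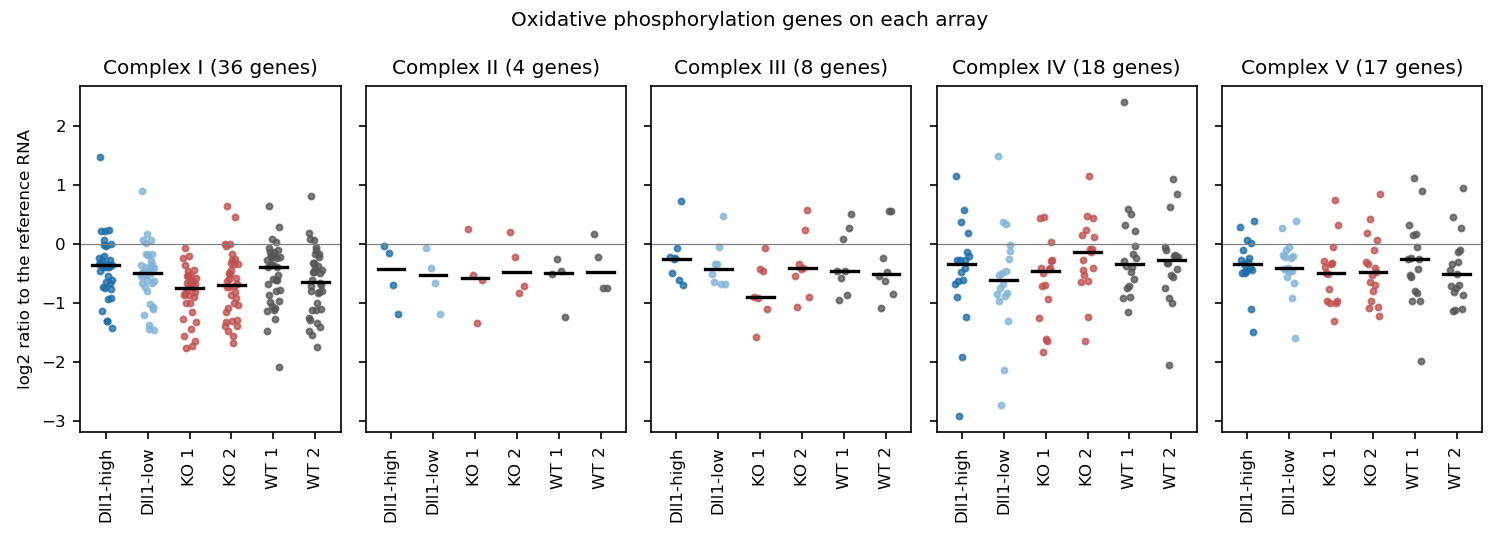
Log2 ratio of each member gene to the reference RNA (vertical axis) on the 6 arrays (horizontal axis), 1 panel per complex, with 1 point per gene and a black bar at the median. Medians lie below 0 in every panel, and the single points far from the rest include Cox6a2 in the high and low fractions and Cox4i2 in WT replicate 1.

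Most members read below the reference RNA on every array. The median over members was -0.35 and -0.46 in the high and low fractions, -0.66 and -0.49 for the KO pair, and -0.38 and -0.47 for the WT pair (replicate 1 first), while the median over all genes was 0.01 to 0.07. Below the reference were 68 of 83 members in the high fraction, 72 of 83 in the low fraction, 69 of 75 and 66 of 82 in the KO and 66 and 70 of 83 in the WT macrophages. The 6 array medians thus spanned little beside the range of single members, which ran from -2.92 to 1.47 in the high fraction alone. With ratios centred on the array median in place of loess, the member median of WT replicate 1 was -2.95, against -0.90 to -0.45 on the other 5 arrays, so the place of this array rests on the dye correction. The mitochondrial ribosomal proteins, also made for this organelle, had array medians of -0.84 to -0.66, and cytosolic ribosomal proteins 0.01 to 0.11.

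The member of highest signal in each complex varied in its own way. Ndufa13, a membrane-arm subunit of complex I also known as GRIM-19, read -0.34 and -0.49 in the high and low fractions, -0.35 and -0.02 in the KO and -0.38 and 0.09 in the WT replicates. Sdhb, the iron-sulfur subunit of complex II, read -0.15 and -0.40, then -0.52 and -0.22, then -0.24 and -0.21 in the same order. For both genes the macrophage ranges took in at least 1 of the Dll1-sorted arrays. Uqcrh, the hinge protein of complex III, read 0.73 and 0.48, then -0.06 and 0.58, then 0.28 and 0.57. Cox6a1, the widely expressed subunit 6a isoform, read -0.62 and -0.74 in the high and low fractions, -0.52 in KO replicate 2 (the spot of replicate 1 was marked and left out) and -0.37 and -0.31 in the WT. Atp5g2, 1 of 3 genes for the proton-carrying c subunit of ATP synthase, read -0.46 and -0.40, then -0.34 and -0.51, then 1.13 and -0.74, so the WT replicates bracketed all other arrays.

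Between the high and low fractions, members of complexes I and IV were mostly a little higher in the high fraction, and those of complex V were mixed. Of 82 members with Cy5 well above background in at least 1 of the 2 states, 66 were higher in the high fraction (80.5%), where 44% of 32032 genes were. The median difference was 0.10, against -0.03 over all genes, and no member reached a 2-fold difference, which 0.197% of all genes did. With 1 array per state there is no test of this shift. On their slide the high fraction lay in column 3 and the low fraction in column 4, so Dll1 state and column cannot be told apart. The technical spread was taken from probes spotted 10 times: the median SD of the difference over spots was 0.11 among 344 such probes. By more than that, 40 members (48.8%) were higher in the high fraction, against 24.7% of all genes, and 5 (6.1%) were lower, against 36.4%. The 5 were Ndufs1, Cox4i2, Cox6a2, Atp5e and Atp5k. The SD over spots holds no variation between arrays, labellings or dyes. Member probes were also brighter than most. Their median raw Cy5 signal was 15065.8 and 12796 in the high and low fractions, against 330 and 352.5 over all spots. The part of signal intensity in these shares was not tested. Under each of the 5 other scalings and probe summaries tried, 66 to 76 of the 82 members were higher in the high fraction. The share of all genes under those settings is not given here. This count therefore gives direction only, and does not show a shift beyond that of all genes.

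Complex I, which oxidises NADH, was higher in the high fraction in 32 of 36 members, with a median of 0.12. Ndufa11, an accessory subunit of the membrane arm, read 1.47 in the high and 0.91 in the low fraction, and its difference of 0.56 was the largest of any member. Ndufs7, a core subunit that carries an iron-sulfur cluster near the ubiquinone site, read -0.76 and -1.06. Ndufs1, the largest core subunit, was the lowest of the complex in this comparison, at -0.39 and -0.28. Complex II was higher in 3 of 4 members, with a median of 0.03 and a range from -0.05 to 0.25 (Sdhb).

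Complex III was higher in 6 of 8 members, with a median of 0.09. Uqcr10, a small accessory subunit, read -0.22 in the high and -0.49 in the low fraction. Uqcrc2, a core protein, is the only member whose probe was spotted 10 times, and its difference was -0.01 (SD over spots 0.04), so for this member the states could not be told apart. Complex IV was higher in 15 of 17 members, with the largest median of the 5 complexes under loess, 0.19. Cox7b2, a testis isoform, entered the comparison only through the high fraction, so the filter set its direction. It is still counted as higher, here and in the counts over all members. It was well above background only in the high fraction, where it was at least 1.26-fold higher in the Cy5 channel than in the low fraction. This bound sets the signal of 1 spot against the dimmest signal called well above background, so it is not a measured difference. Cox4i2, the isoform of subunit 4 known from lung and from hypoxia, went the other way, at 1.17 in the high and 1.49 in the low fraction. Cox6a2, the heart and muscle isoform, also did, at -2.92 and -2.72.

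Complex V was higher in 10 of 17 members, with a median of 0.01. Its lowest differences were in Atp5e, the epsilon subunit of the F1 head (-0.34 in the high and -0.10 in the low fraction), and Atp5k, the e subunit of the membrane part (-1.09 and -0.90). Its highest were in Atp5o, the stalk subunit that confers oligomycin sensitivity (-0.43 and -0.66), and Atp5l, the g subunit (0.02 and -0.19). With the processed signals of the scanner software the median was 0.06 and 11 of 17 were higher, with the Cy5 channel alone 0.08 and 13, and with median centring 0.10 and 15.

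**Figure D2:**
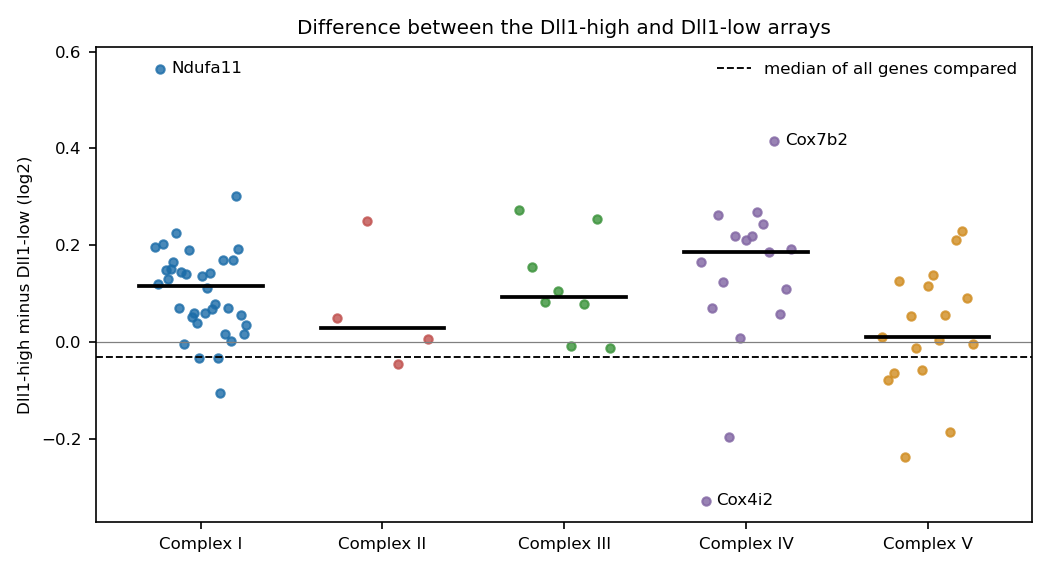
Dll1-high minus Dll1-low log2 ratio (vertical axis) for the 82 compared members by complex (horizontal axis), with 1 point per gene, black bars at the complex medians and a dashed line at the median of all compared genes, -0.03. All 5 complex medians lie above the dashed line, between 0.01 for complex V and 0.19 for complex IV, and Ndufa11 and Cox4i2 mark the extremes.

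Genes that work with the complexes were set beside them, as were the subunits Ndufab1 and Cyc1, which the naming pattern misses. The 7 electron carriers and partners outside the naming pattern (Ndufab1, Cyc1, Cycs, Coq7, Etfa, Etfb and Etfdh) were all higher in the high fraction, with a median of 0.11, as were all 4 nucleotide and phosphate carriers of the inner membrane (Slc25a3, Slc25a4, Slc25a5 and Ucp2), with a median of 0.15. Of 34 assembly factors 26 were higher (median 0.09), and of 13 regulators of mitochondrial biogenesis 11 (median 0.13), among them Nrf1 (0.02 and -0.12) and Gabpa (-0.62 and -0.81). Enzymes of the tricarboxylic acid cycle (6 of 13 higher, median -0.03) and of glycolysis (6 of 13, median -0.02) and the mitochondrial ribosomal proteins (40 of 76, median 0.00) lay near the median of all genes under loess. With the processed signals 58 of 76 mitochondrial ribosomal proteins (median 0.08) and 9 of 13 enzymes of the cycle (median 0.05) were higher, and with median centring 10 of 13 glycolytic enzymes (median 0.09). Cytosolic ribosomal proteins were higher in 55 of 96, with a median of 0.04, but in 73 of 96, with a median of 0.14, under median centring, where the member median was 0.17. With Cy5 alone 2 of the 4 inner membrane carriers were higher.

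The 7 ND genes, the complex I subunits encoded in mitochondrial DNA, ran opposite to the nuclear ones: 6 of 7 were lower in the high fraction, with a median of -0.20. ND4, for example, read 0.42 in the high and 0.68 in the low fraction, and ND5 0.37 and 0.57, while ND6 read -0.57 and -0.76. These genes were added to the lists after the files were seen. The median of the ND genes was below 0 in each of the 5 alternatives as well, from -0.20 to -0.11. Markers of other cell types also differed between the states. Fibroblast markers were lower in the high fraction in 7 of 8 (median -0.61), endothelial markers in 7 of 8 (median -0.28) and luminal markers in 9 of 11 (median -0.22), while basal markers had a median of 0.11. The part of these markers in the shift of the members was not tested. In such sorted bulk samples, fewer cells of a type and less RNA per cell cannot be told apart.

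**Figure D3:**
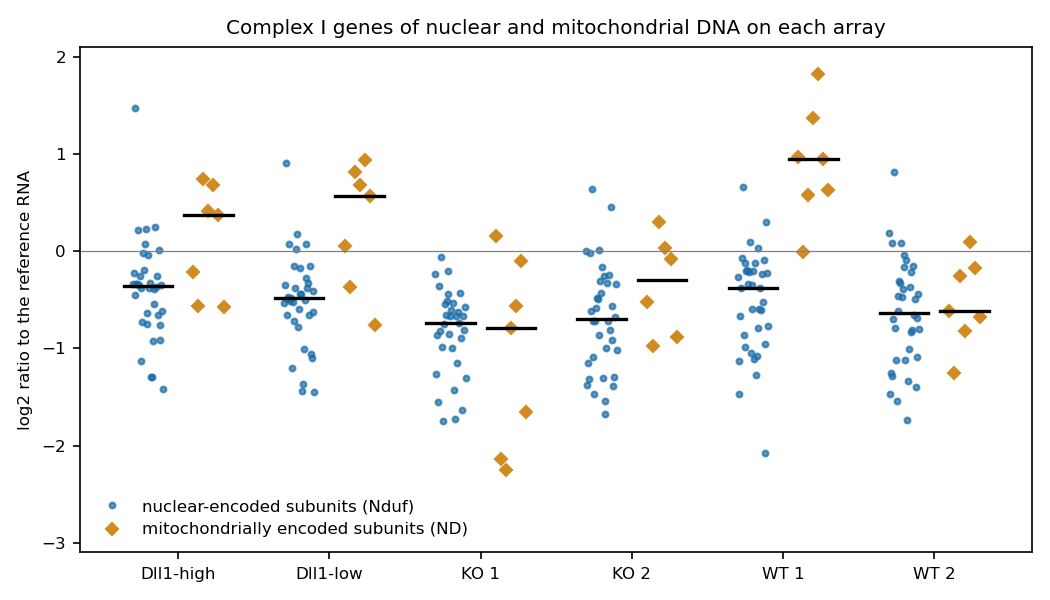
Log2 ratio to the reference RNA (vertical axis) of the 36 nuclear-encoded (circles) and 7 mitochondrially encoded (diamonds) complex I genes on each array (horizontal axis), with black bars at the medians. The nuclear medians run from -0.74 to -0.36 over the arrays and the ND medians from -0.79 in KO replicate 1 to 0.95 in WT replicate 1.

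Between KO and WT macrophages no member passed the threshold (limma, adjusted p under 0.05), nor did any of the 24980 genes tested (0%). At an unadjusted p under 0.05 there were 0 of 80 members and 32 genes (0.128%), and the smallest adjusted p of any gene was 0.999. Of the 80 members, 62 were lower in the KO (77.5%), against 59.9% of all genes, and the median difference was -0.17, against -0.10, but under median centring without loess the median was 1.03 (all genes 0.47) and 1 of 80 was lower. With Cy5 alone 44 of 80 were lower. With 2 arrays a group and WT replicate 1 apart from the rest, this direction is a description of these 4 arrays.

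The KO and WT arrays lay in different columns of 1 slide, so genotype and column cannot be told apart, while replicate 1 of both lay in row 1 and replicate 2 in row 2. Within row 1 the median member difference was -0.34 and 56 of 71 members with all 4 values were lower in the KO, against 58.9% of all genes. Within row 2 the median was 0.01 and 32 of 71 were lower, against 52.6%. Lower in both rows were 25 of 71 (35.2%), against 30.2% of all genes, and higher in both were 8 (11.3%), against 18.7%. Both KO arrays lay below both WT arrays in 17 of 71 (23.9%), against 13.5%, and above them in 5 (7.04%), against 6.65%. Without WT replicate 1 the member median was -0.15 and that of all genes -0.01, and 55 of 80 members were lower.

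By complex, the loess values put 32 of 36 complex I members lower in the KO (median -0.21), 2 of 4 in complex II (median 0.09), 6 of 8 in complex III (-0.19), 13 of 16 in complex IV (-0.17) and 9 of 16 in complex V (-0.05). Under median centring 0, 0, 0, 1 and 0 of them were lower. Complex I members that were lower in both KO than in both WT arrays included Ndufs6, a zinc-binding subunit, at -0.90 and -0.57 against -0.09 and -0.49, and Ndufa9, at -0.51 and -0.48 against -0.34 and -0.31. In these 2 genes the gap between the groups was under 0.15 at its narrowest.

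The 4 members furthest below WT differed mainly in row 1. Cox4i2 read 0.45 and 0.15 in the KO and 2.42 and -0.05 in the WT replicates (difference -0.88, SE 0.91, limma adjusted p 0.999), and without WT replicate 1 the difference was 0.35. Uqcrq, a small subunit of complex III, read -1.10 and -0.89 against 0.51 and -0.85 (difference -0.83, SE 0.57). Ndufa5, a peripheral-arm accessory subunit, read -1.75 and -1.09 against -0.12 and -1.12 (-0.80, SE 0.52). Atp5j2, the f subunit of ATP synthase, read -1.30 and -0.69 against -0.05 and -0.69 (-0.63, SE 0.43). Without WT replicate 1 the difference was -0.15 for Uqcrq, -0.30 for Ndufa5 and -0.31 for Atp5j2. Without KO replicate 1 it was -0.47 for Ndufa5 and -0.32 for Atp5j2. In each of these 4 genes the row 2 arrays differed by 0.20 or less, and only for Uqcrq did the KO arrays lie below both WT arrays. A second probe gave smaller differences, of -0.54 for Uqcrq, -0.19 for Ndufa5 and -0.17 for Atp5j2. The array files place the Atp5j2 probe used here on chr9 and its second probe on chr5.

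Of the members furthest above WT, Cox6b1, the subunit that faces the intermembrane space, read -0.48 and 0.25 in the KO and -1.14 and -0.90 in the WT (difference 0.91, SE 0.41). Its value in KO replicate 2 came from a spot that had lost the signal of both channels. Its raw Cy5 signal was 64 and its raw Cy3 signal 17, where the medians of the other arrays were 717 and 950. With Cy5 alone, which keeps this dim spot, the difference was -1.03, and without the spot it was 0.54. Ndufs8, a core subunit with iron-sulfur clusters, read -0.67 and -1.29 against -2.08 and -1.09 (0.61, SE 0.51). Sdha, the succinate-oxidising flavoprotein, read 0.26 and 0.21 against -0.51 and 0.17 (0.40, SE 0.39), and Atp5l 0.76 and 0.08 against -0.24 and 0.27 (0.40, SE 0.43). The KO arrays lay above both WT arrays for Cox6b1 and Sdha, and in Sdha by 0.04 at the narrowest, while Ndufs8 and Atp5l overlapped. The Sdha difference was -0.02 with Cy5 alone and 0.07 without WT replicate 1. Atp5b, the catalytic beta subunit of ATP synthase, is among the genes with a lost spot on KO replicate 2 and read -0.38 and 0.19 against 0.33 and -0.71.

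**Figure D4:**
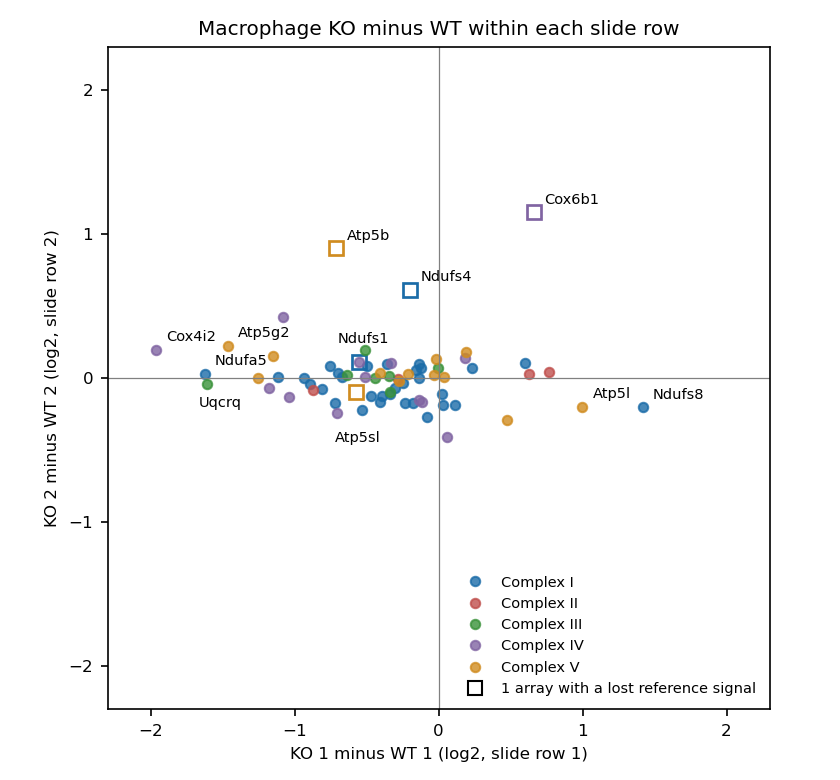
KO minus WT log2 ratio of the 71 members with values on all 4 macrophage arrays, in slide row 1 (horizontal axis, replicate 1) and slide row 2 (vertical axis, replicate 2). Points are coloured by complex, and open squares mark genes with a lost reference signal on 1 array. The spread in row 1 is wide, from -1.96 to 1.42, while in row 2 most genes lie near 0 and the 3 highest (Cox6b1, Atp5b and Ndufs4) are open squares.

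The lists of other genes were compared in the same way. The ND genes were lower in the KO in 7 of 7 (median -1.06), with -2.21 in row 1 and 0.10 in row 2, and were higher under median centring in 5 of 7 (median 0.29). Mitochondrial ribosomal proteins were lower in 62 of 76 (median -0.19), glycolytic enzymes in 13 of 14 (median -0.56, with -1.26 in row 1 and 0.06 in row 2) and cytosolic ribosomal proteins in 46 of 95 (median 0.02). Assembly factors were lower in 17 of 32 (median -0.05), electron carriers and partners in 3 of 7 (median 0.02), and biogenesis regulators in 7 of 12 (median -0.10). With the processed signals 20 of 32 assembly factors (median 0.13) and 8 of 12 regulators (median 0.13) were higher instead, as were 66 of 95 cytosolic ribosomal proteins (median 0.11), and 44 of 76 mitochondrial ones were lower (median -0.04). With Cy5 alone 5 of the 7 partners were lower (median -0.19). The median of all genes was -0.04 with the processed signals and -0.03 with Cy5 alone. Under median centring every one of these lists had a median above 0, as all genes did. No gene of these lists passed the threshold. Macrophage markers were higher in the KO in 9 of 10 (median 0.74), with 1.00 in row 1 and 0.38 in row 2. So were markers of B, T and NK cells in 8 of 8 (median 0.59), with 1.26 in row 1 and 0.05 in row 2. Mast cell markers were higher in 3 of 4, basal in 5 of 10, luminal in 5 of 11 and muscle in 2 of 3. Adipocyte markers were lower in 4 of 4 (median -0.66). Fibroblast markers were lower in 8 of 8 (median -0.72), with -1.87 in row 1 and 0.45 in row 2, while endothelial markers were lower in 8 of 8 (median -0.87), with -1.09 in row 1 and -0.75 in row 2. The part of these cells in the member differences was not tested.

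Between the CD24+ CD29hi cells and the macrophages, 2 of 81 members passed the threshold (2.47%; limma on all 6 arrays, adjusted p under 0.05), where 6.76% of 31238 genes did (3.07% higher and 3.69% lower). Both were complex I accessory subunits and both were higher in the CD24+ CD29hi cells: Ndufa11 and Ndufa10. At an unadjusted p under 0.05 there were 18 members (22.2%), against 20.6% of all genes. The limma fit treated the arrays of the high and low fractions as replicates of the CD24+ CD29hi cells, although they are different sorted states. Differences between these fractions thus entered the SE and p-value of each gene as replicate variation. For Ndufa11 this difference was 0.56, the largest of any member. The cell types lay on different slides, read with different versions of the scanner software, so the slide and the cell type cannot be told apart in any value of this comparison.

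The stretches below are the first 30 of the 60 bases of the probes behind these 2 genes, shown because each call rests on a single probe, with the probe's mm9 position from the array files.
Ndufa11 (chr17:56857241-56857300, plus strand): ggccgagcaagcccagctaggtatggcgat
Ndufa10 (chr1:94361039-94363996, minus strand): tggaggcaatgtacaaccagggctatatcc
The Ndufa10 span is longer than the probe because the alignment in the array files is gapped. An mm9 annotation was not used here, so the exon of the Ndufa11 probe is not given.

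Ndufa11 read 1.47 and 0.91 in the high and low fractions, -0.86 and -1.15 in the KO and -1.47 and -1.26 in the WT macrophages. Both CD24+ CD29hi arrays lay far above all 4 macrophage arrays, by 2.38 on the log2 scale (SE 0.23, 5.19-fold, limma adjusted p 0.011). Ndufa10, an accessory subunit related to nucleoside kinases, read -0.23 and -0.34, then -1.27 and -1.38, then -1.13 and -1.47, a difference of 1.03 (SE 0.18, 2.04-fold, limma adjusted p 0.0426) without overlap. The adjusted p of Ndufa11 ranged from 0.0084 to 0.18 over the alternatives and that of Ndufa10 from 0.0168 to 0.434, and the direction never changed. Neither passed under the scanner software's processed signals (0.054 and 0.105), the authors' value table (0.0532 and 0.107) or median centring (0.0548 and 0.135). Both also missed the threshold without the Dll1-high, the Dll1-low, the KO replicate 1 or the KO replicate 2 array, so that 0 members passed then. Without WT replicate 1 the count was 10 (Ndufa10, Ndufa11, Ndufa12, Uqcrfs1, Cox4i2, Cox5a, Cox6a2, Cox7c, Atp5a1 and Atp5d) and without WT replicate 2 it was 5 (Ndufa10, Ndufa11, Ndufb2, Cox6a2 and Atp5g2).

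No other complex I member passed the threshold. Of its 36 members 25 were higher in the CD24+ CD29hi cells (median 0.12), and over all members 48 of 81 were (59.3%), against 45.5% of all genes. Ndufb2, a membrane-arm accessory subunit, read 0.23 and 0.17 in the high and low fractions, -0.86 in KO replicate 2 (replicate 1 was left out) and -1.05 and -0.47 in the WT (difference 1.01, SE 0.26, limma adjusted p 0.139). Ndufb6 read -0.38 and -0.44 against a mean of -1.13 over the 4 macrophage arrays (0.72, limma adjusted p 0.0841). In both genes the CD24+ CD29hi arrays lay above every macrophage value. Among members with all 6 values, 16 of 72 had both CD24+ CD29hi arrays above the 4 macrophage arrays, against 15.9% of all genes, and 9 of these were in complex I. Another 10 of 72 had them below, against 19.2%, and 5 of these were in complex IV.

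Complex II had a median of -0.03 and complex III one of 0.24, with 6 of 8 members higher in the CD24+ CD29hi cells. Uqcr11 read -0.48 and -0.64 in them and -1.58 to -0.94 in the macrophages (0.60, limma adjusted p 0.2). Uqcrfs1, the Rieske iron-sulfur protein, had the lowest difference of complex III, -0.69 (SE 0.51, limma adjusted p 0.592): it read -0.60 and -0.68, 0.24 in KO replicate 2 and -0.85 and 0.57 in the WT, so the WT replicates bracketed the other arrays. Complex V had a median of -0.03, with 8 of 17 higher, and its largest difference was in Atp5d, the delta subunit of the central stalk (0.77, SE 0.22, limma adjusted p 0.129), at -0.10 and -0.22 against -1.12 to -0.56. The complex V median was above 0 with the processed signals (0.26), Cy5 alone (0.17) and median centring (0.76), and -0.12 with the mean of all probes.

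In complex IV, 9 of 16 members were lower in the CD24+ CD29hi cells, with a median of -0.14. Cox6a2 read -2.92 and -2.72 in the high and low fractions, -1.83 and -1.63 in the KO and -0.75 and -2.05 in the WT (difference -1.25, SE 0.40, limma adjusted p 0.167). Cox7c, a small subunit with a single isoform, read -1.24 and -1.29, then -0.41 and -0.08, then -0.59 and -0.21 (-0.95, SE 0.20, limma adjusted p 0.0675). Cox7a1, the heart and muscle isoform of subunit 7a, read -1.92 and -2.14, then -1.60 and -1.24, then a WT mean of -0.95 (-0.84, SE 0.19, limma adjusted p 0.0746). Cox5a, a subunit on the matrix side, read -0.89 and -0.96, then -0.40 and -0.26, then -0.28 and -0.10 (-0.66, SE 0.16, limma adjusted p 0.0871). In all 4 genes the groups did not overlap, and none passed the threshold. Under median centring 12 of 16 complex IV members were higher (median 0.60), as the median of all genes moved to 0.19, while the other scalings kept the complex IV median below 0.

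**Figure D5:**
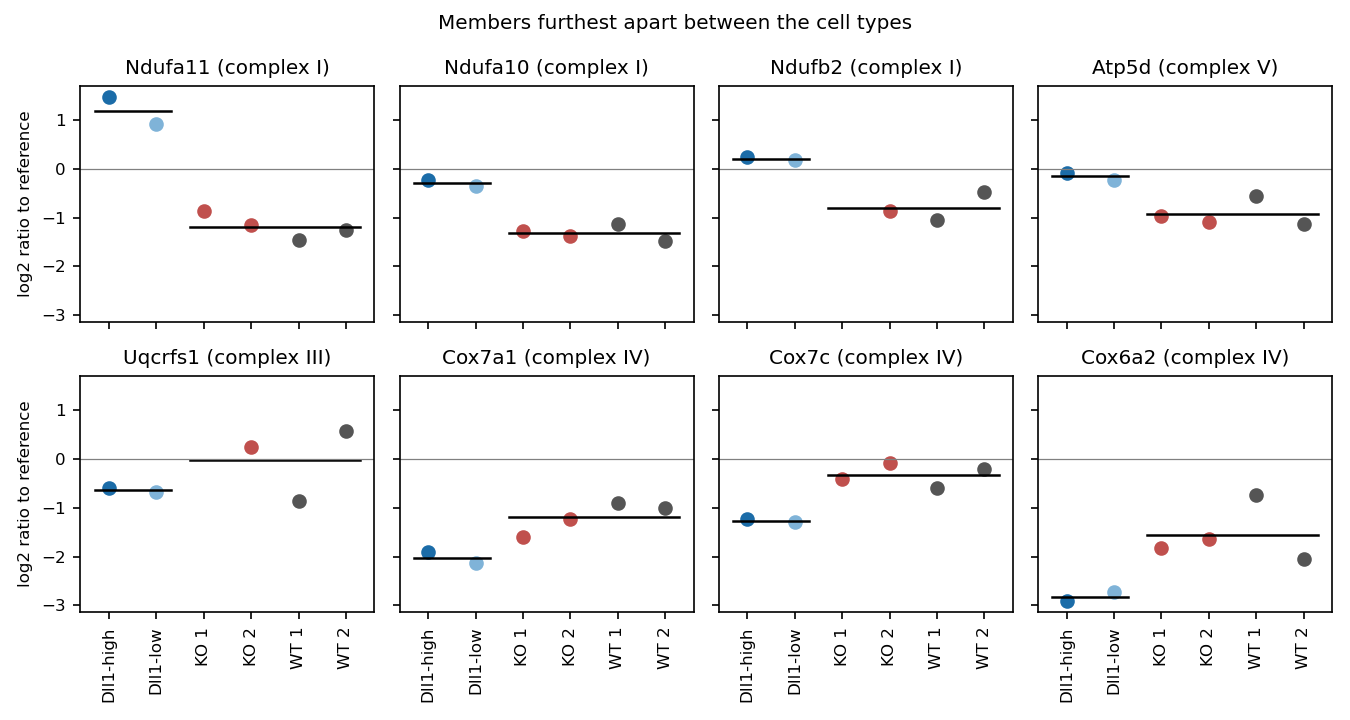
Log2 ratio to the reference RNA (vertical axis) on each array (horizontal axis) for the 4 members furthest above and the 4 furthest below the macrophages, with black bars at the mean of the arrays of a cell type. Ndufa11 and Ndufa10 passed the threshold, and the other 6 did not. Cox6a2 and Uqcrfs1 show a wide spread between the macrophage arrays.

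Of the 28 members with several probes, 24 had at least 2 that were well above background on all 6 arrays, and among these 4 had probes that differed in sign between the cell types: Uqcrq, Cox7a2l, Cox7c and Ndufv3. In Cox7c and Ndufv3 the probes lay more than 1 apart on the log2 scale. Between KO and WT 7 of the 24 had probes of opposite sign, and between the Dll1 states 3 had, none more than 1 apart. For Cox7c, the stretches shown are the first 30 of 60 bases of the 2 brightest probes, on the minus strand of mm9, since their results differ.
Cox7c, brightest probe (chr13:86184447-86184506): aaagtttaagagatgatctgaaaattggat
Cox7c, second probe (chr13:86186301-86186360): tgtagaaaggagagttaggtggtacggcca
The brightest probe, with 25% G and C, gave -0.95 between the cell types. The second, with 55% G and C, read -1.29 and -1.45 in the high and low fractions, -1.64 and -1.75 in the KO and -1.31 and -1.93 in the WT, a difference of 0.29. The third, which overlaps the brightest, gave -0.24. For Ndufv3, a small accessory subunit, the 3 probes gave -0.46, 0.58 and 0.36, and the probe with 0.58 carries an accession that was not matched to a current gene. Of the 4 genes outside this filter, Atp5g1 had probes of opposite sign too, at 0.29 and -0.81, where the second had lost its reference spot on KO replicate 1. The probes of Uqcrq gave -0.10 and 0.35, and those of Cox7a2l ran from -0.53 to 0.01. Hence no direction can be given for Uqcrq, Cox7a2l, Cox7c, Ndufv3 and Atp5g1 between the cell types. In the counts by complex these genes stand with their brightest probe.

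Isoform pairs of complex IV and the c subunit of complex V were read side by side, each against the reference and without ranking 1 isoform over another. Cox4i1, the common isoform of subunit 4, read -0.67 and -0.84 in the high and low fractions and -1.24 to -0.64 in the macrophages, and Cox4i2 had the wide values given above. Cox6b2, a testis isoform, was steady, at 0.39 and 0.38 and 0.47 to 0.63. Cox7a2, the common partner of Cox7a1, read -0.61 and -0.88 against -1.64 to -0.47, and Cox7a2l 0.58 and 0.34 against 0.51 to 1.16 on 3 arrays. Cox7b read -0.27 and -0.46 against -0.93 to -0.08. Cox8a, the common isoform of subunit 8, read -0.14 and -0.25 against -0.41 to 0.23. Cox8b, the heart and muscle isoform, was not well above background in either KO array, and its ratios of 0.03 and 0.45 in the KO and -0.03 and 0.86 in the WT overlapped.

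Of the c subunit genes, Atp5g1 and Atp5g2 stood apart on WT replicate 1, and Atp5g3 did not. Atp5g1 read -0.45 and -0.43 in the high and low fractions, -0.99 and -0.97 in the KO and 0.16 and -1.12 in the WT, on its brightest probe, which the second probe did not match in sign between the cell types. Atp5g3 read 0.07 and -0.04, then -0.31 and -0.80, then -0.79 and -0.50, with both CD24+ CD29hi arrays above the macrophages (0.61, SE 0.21, limma adjusted p 0.2). Of the members that are not subunits, Atp5sl read 0.39 and 0.39 against 0.33 to 0.96, with a lost reference spot in KO replicate 1, and Atp5s was well above background on 3 of 6 arrays, with -1.49 and -1.58 in the high and low fractions and -1.98 and -0.86 in the WT replicates.

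Of the partner lists, 2 of 34 assembly factors passed the threshold between the cell types, where 6.76% of 31238 genes did. Acad9, needed for complex I assembly, read 1.05 and 0.80 in the high and low fractions and -0.82 to -0.60 in the macrophages (1.66, limma adjusted p 0.0118). Sdhaf1, needed for complex II, read -0.56 and -0.81 against 0.99 to 1.87 (-1.98, limma adjusted p 0.0284). Both calls are from the loess values, and their adjusted p under other settings is not given. Over all genes the number passing fell from 2111 to 819 with the processed signals and 681 with median centring. The other 32 of the 34 did not pass, nor did any of the 7 carriers and partners, the 7 ND genes, the 13 biogenesis regulators, the 13 tricarboxylic acid cycle genes, the 14 glycolytic genes or the 4 inner membrane carriers. Cyc1, the cytochrome c1 of complex III, was among the closest, at -0.19 and -0.30 against -1.68 to -1.20 (1.21, limma adjusted p 0.051). Of 76 mitochondrial ribosomal proteins 2 passed, both lower, and of 98 cytosolic ones 1, higher. Over all genes 3.69% passed as lower and 3.07% as higher.

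The promoter cores shown at the start were set against the differences as a description. With any of the 3 cores the median was 0.11 between the Dll1 states (27 genes), and without one it was 0.12 (42 genes). Between KO and WT both medians were -0.17, and between the cell types they were 0.05 and 0.02. Some medians for the NRF1 and YY1 cores, in 8 members each, lay further apart. Between the cell types the median was -0.25 with the NRF1 core and 0.04 without it, and 0.25 with the YY1 core and 0.02 without it. Between KO and WT it was -0.33 with the YY1 core and -0.16 without it. The other medians by core lay closer. With the ETS core (16 members) the cell type median was 0.03, and 0.04 without it. For NRF1 it was 0.11 with and without the core between the Dll1 states, and -0.19 and -0.17 between KO and WT. Among the members whose windows are printed above, the cell type difference was 2.38 for Ndufa11, 0.60 for Uqcr11, -0.25 for Cox6a1, -0.31 for Atp5g2 and 0.26 for Atp5j.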

How the data were processed

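Per the file headers, the scanner files (written by Feature Extraction, version 11.0.1.1 for the sorted fractions and 12.0.2.2 for macrophages) hold unprocessed spot intensity, and their log ratio column is the log10 of sample over reference. The value table deposited by the authors is on a log2 scale and followed this column (correlation 0.978 to 1.00). Median spot signals, the kind all files hold, were corrected with normexp (offset 50), normalized by loess (limma 3.58.1, R 4.3.3), and spots marked as outliers were left out. Genes needed Cy5 well above background on 1 of 2 arrays (Dll1 states), 2 of 4 (KO and WT) or 2 of 6 (cell types), and limma p-values were Benjamini-Hochberg adjusted over all genes at 0.05. The median Cy5 signal was 330 and 352.5 in the high and low fractions (background 75 and 76) and from 98 to 155.5 for macrophages (background 64 to 68), and the number of arrays limits the precision. Accessions of 112 of 122 probes matched the RefSeq table (108 to the same symbol).

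Members, lists and promoter cores were chosen with earlier results of these data known. Named were the brightest member of each complex, the 4 furthest from 0 in each direction, those past the threshold, isoforms, members not above background on any array, those with discordant probes and those that are not subunits. Others named (such as Ndufs6, Ndufa9, Ndufb6, Uqcr11, Cox5a, Atp5o, Atp5b, Acad9 and Cyc1) were chosen after their values were seen. The fits were checked on simulated data.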

Additional observations from a re-analysis of the deposited data

How the results depend on the processing

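With 1 or 2 arrays a group, no dye swap and cell types on separate slides, only large differences could pass a test. Most members were higher in the high fraction under every scaling and probe summary tried. The share of all genes is given only under loess, so this is a direction and not a shift beyond all genes. The number of members past the threshold between the cell types fell from 2 to 1 with Cy5 alone, with Cy5 well above background on all 6 arrays and with a robust fit, and to 0 with the processed signals, median centring and the authors' value table. Leaving out 1 array at a time it ran from 0 to 10, with 10 without WT replicate 1, 5 without WT replicate 2 and 0 without any of the other 4, and the median ran from 0.00 to 0.12. Over all genes 2111 passed between the cell types, 819 with the processed signals, 681 with median centring, 804 with the authors' value table and 0 to 5125 leaving out 1 array. Under median centring without loess the member median was 1.03 between KO and WT and 0.86 between the cell types. The median between KO and WT was -0.34 within slide row 1 and 0.0081 within row 2, and -0.29 to -0.095 leaving out 1 array at a time. No member passed between KO and WT in any setting. With the replicate number as a block the median was -0.19, 0 members and 0 genes passed, and 153 genes had an unadjusted p under 0.05, against 32 without the block; deviations of same-numbered arrays correlated at 0.595 over all genes and 0.134 over members, and the labels do not say that the number pairs samples. Leaving out spots with a lost reference, an alternative chosen after seeing the data, changed no call of a member, and 2164 genes passed between the cell types. Of the named values, 12 of 135 between KO and WT changed sign in some setting, as did 1 of 118 between the cell types and 0 of 55 between the Dll1 states; the cause was not tested.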
